A study of Mus musculus with 11 samples.

Results

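The genes described here are 9 genes that bind, move or sense zinc: the metallothioneins Mt1, Mt2 and Mt3, the metal-sensing transcription factor gene Mtf1, the zinc exporter genes Slc30a1 and Slc30a9, and the zinc importer genes Slc39a1, Slc39a10 and Slc39a14. They were taken by name, and all 9 were found among the 53453 gene rows of the table and passed the filter on low values, which left 13549 tested genes. They were picked with earlier results of the comparison between the groups in view, so their differences between groups are given as a description. RNA sequencing measured transcript levels in primary neurospheres, which are free-floating balls of dividing neural progenitors, grown from mouse embryonic brain at E15.5. Per the labels there were 6 control libraries, given no treatment, and 5 libraries with Klf5 overexpression. The labels' protocol counts the same numbers of embryos. The sources used here do not give the mouse strain, the way in which Klf5 was overexpressed or any vector carried by the controls. Values are TPM, a transcript abundance scaled for transcript length, so that levels of different genes can be set side by side.

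Metallothioneins are small cysteine-rich proteins that hold zinc and copper ions in clusters. Mt1 and Mt2 are made in most tissues and are induced when free zinc rises: zinc binds MTF1, the protein of Mtf1, which then acts at metal response elements in their promoters. Mt3 is found mainly in the brain and was first described as an inhibitor of neurite growth, and it responds little to metals. Zinc leaves the cytosol through ZnT proteins of the Slc30 family and enters it through ZIP proteins of the Slc39 family, and Slc30a1 is also a known MTF1 target.

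The 3 metallothionein genes lie side by side on the plus strand of mouse chromosome 8 (GRCm38): Mt3 (ENSMUSG00000031760) at 94152607 to 94154146, Mt2 (ENSMUSG00000031762) at 94172664 to 94173568 and Mt1 (ENSMUSG00000031765) at 94179082 to 94180327. Their upstream sequences are shown for reference, and any link between these sequences and the levels described below was not tested. Each run is the 240 bases from 250 to 11 bases before the RefSeq start, 5′ to 3′, on GRCm38.p6. Capitals mark matches to the metal response element core, searched on both strands as TGCACNC or TGCGCNC.
Mt1 (chr8:94178839-94179078, plus strand): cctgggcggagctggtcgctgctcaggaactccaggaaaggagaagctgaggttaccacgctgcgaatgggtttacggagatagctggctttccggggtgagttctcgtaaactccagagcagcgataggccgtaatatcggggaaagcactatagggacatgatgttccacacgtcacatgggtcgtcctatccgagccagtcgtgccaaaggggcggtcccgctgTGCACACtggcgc
Mt2 (chr8:94172368-94172607, plus strand): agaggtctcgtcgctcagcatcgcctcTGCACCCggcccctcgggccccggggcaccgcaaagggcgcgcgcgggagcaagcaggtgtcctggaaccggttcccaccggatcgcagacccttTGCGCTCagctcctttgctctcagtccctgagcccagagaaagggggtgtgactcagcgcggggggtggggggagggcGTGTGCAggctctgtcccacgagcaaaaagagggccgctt
Mt3 (chr8:94152357-94152596, plus strand): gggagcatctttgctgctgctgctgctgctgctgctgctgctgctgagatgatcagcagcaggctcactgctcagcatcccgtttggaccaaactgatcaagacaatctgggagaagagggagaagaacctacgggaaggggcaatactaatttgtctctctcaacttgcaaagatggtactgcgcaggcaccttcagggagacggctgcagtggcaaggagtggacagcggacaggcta

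The Mt2 window held 3 matches to the core, the Mt1 window 1 and the Mt3 window 0. Of 32851 RefSeq windows of the same length, 20.4% held at least 1 match to either form and 1.18% held at least 3. The window of Slc30a1 held 1 match, and those of Mtf1, Slc30a9, Slc39a1 and Slc39a10 (which has more than 1 RefSeq start) held 0. Windows were found for 8 of the 9 genes, all but Slc39a14. CACCC, a short form of the box bound by Kruppel-like factors, was searched on either strand, and 50.6% of all windows held it. It was matched 3 times in the Mt2 window, 2 times in 1 Slc39a10 window, 1 time each for Mt1 and Slc30a9, and 0 times for Mt3, Mtf1, Slc30a1 and Slc39a1. The GC box CCGCCC was matched 5 times for Slc30a1, 2 times each for Mt1 and Slc30a9, and 1 time each for Mtf1 and Slc39a1. It had 0 matches for Mt2, Mt3 and Slc39a10, and 31.3% of all windows held it. These are letter matches and not measured binding sites. The counts cover only the windows, which are placed by the RefSeq start. Bases nearer the start or beyond it were not searched, so the counts are not totals for a promoter. For Mt2 the GENCODE start lies downstream of the RefSeq start from which the window is counted.

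Klf5 itself, which encodes a Kruppel-like transcription factor, was at 93.0, 91.4, 58.7, 82.1 and 53.6 TPM in overexpression libraries 1 to 5 and at no more than 1.29 TPM in any control library (two-sided exact permutation p = 0.00216, the smallest that the 462 arrangements of this test allow). Summed over all listed rows, TPM came to 830176 ± 12100 (SD, n = 6) in controls. It came to 784942 ± 35448 (SD, n = 5) in the overexpression group (two-sided exact permutation p = 0.00649). Overexpression library 5 had the lowest total, 730832, and no other library was below 772597, so TPM comparisons carry a scale difference that varies by library. The median log2 fold change over all tested genes was -0.0386, and -0.0055 with trimmed-mean scaling. Of 7 progenitor markers, all tested, Nes, at 243.8 to 467 TPM over all 11 libraries, Sox2, at 287 to 445 TPM, Pax6, Sox1 and Fabp7 (3596 TPM in controls, 2105 TPM with overexpression, limma adjusted p = 0.069) did not pass. Vim, an intermediate filament gene, rose: its mean was 1075 TPM in controls and 1572 TPM with overexpression (limma adjusted p = 0.0365). Msi1, an RNA-binding protein gene, fell from 27.0 to 17.4 TPM (adjusted p = 0.0433). The part of these markers in the levels given below was not tested. Each of 6 microglial, 6 endothelial and 6 erythroid markers was below 1 TPM in every library, and Aif1, Cx3cr1, C1qa, Hba-a1 and Hbb-bs were listed at 0 throughout. Of 5 choroid plexus and ependymal markers, 2 were tested. Aqp1 rose from a mean of 0.242 TPM in controls to 2.84 TPM with overexpression (limma adjusted p = 0.00343). Foxj1, at 7.82 and 5.10 TPM, did not pass (adjusted p = 0.2). Of 6 mural and mesenchymal markers, 1 was tested, Acta2, and it did not pass (adjusted p = 0.678). Their part in the levels given below was likewise not tested.

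Among the metallothioneins, Mt3 was far lower with Klf5 overexpression, while Mt1 and Mt2 lay at overlapping levels in both groups. Mt3 stood at 205 to 380 TPM in controls, with a median of 334 TPM, and at 99.7, 30.7, 85.7, 75.4 and 110.2 TPM in overexpression libraries 1 to 5. The highest overexpression library, library 5, was thus below the lowest control, library 3. Means were 309 ± 78.6 TPM (SD, n = 6) and 80.3 ± 30.8 TPM (SD, n = 5), a 3.84-fold lower mean, and the log2 fold change on the log2(TPM + 1) scale was -2.01 ± 0.27 (SE). Only 9 tested genes had a more negative log2 fold change. Overexpression library 2 had the lowest Mt3 level of all, and without it the log2 fold change was -1.70.

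Mt1 stood at 88.0 to 188 TPM in controls, with a median of 127 TPM, and at 192, 83.3, 131.5, 106 and 92.1 TPM in overexpression libraries 1 to 5. The overexpression group held both the highest and the lowest library, and its range enclosed that of the controls. The means were 130.4 ± 33.5 TPM (SD, n = 6) and 121 ± 43.8 TPM (SD, n = 5). The log2 fold change was -0.14 ± 0.21 (SE), and its 95% limma interval ran from -0.58 to 0.31. Mt2 stood at 51.7 to 123 TPM in controls, with a median of 87.9 TPM, and at 141.5, 33.2, 94.3, 63.8 and 42.4 TPM in overexpression libraries 1 to 5. Again the range with overexpression, widened at both ends by libraries 1 and 2, enclosed the control range. The log2 fold change of Mt2 was -0.33 ± 0.30 (SE), with an interval from -0.98 to 0.31, so that a fall to 0.509 of the control level lies within it. It was -0.61 without overexpression library 1 and -0.09 without overexpression library 2.

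**Figure D1:**
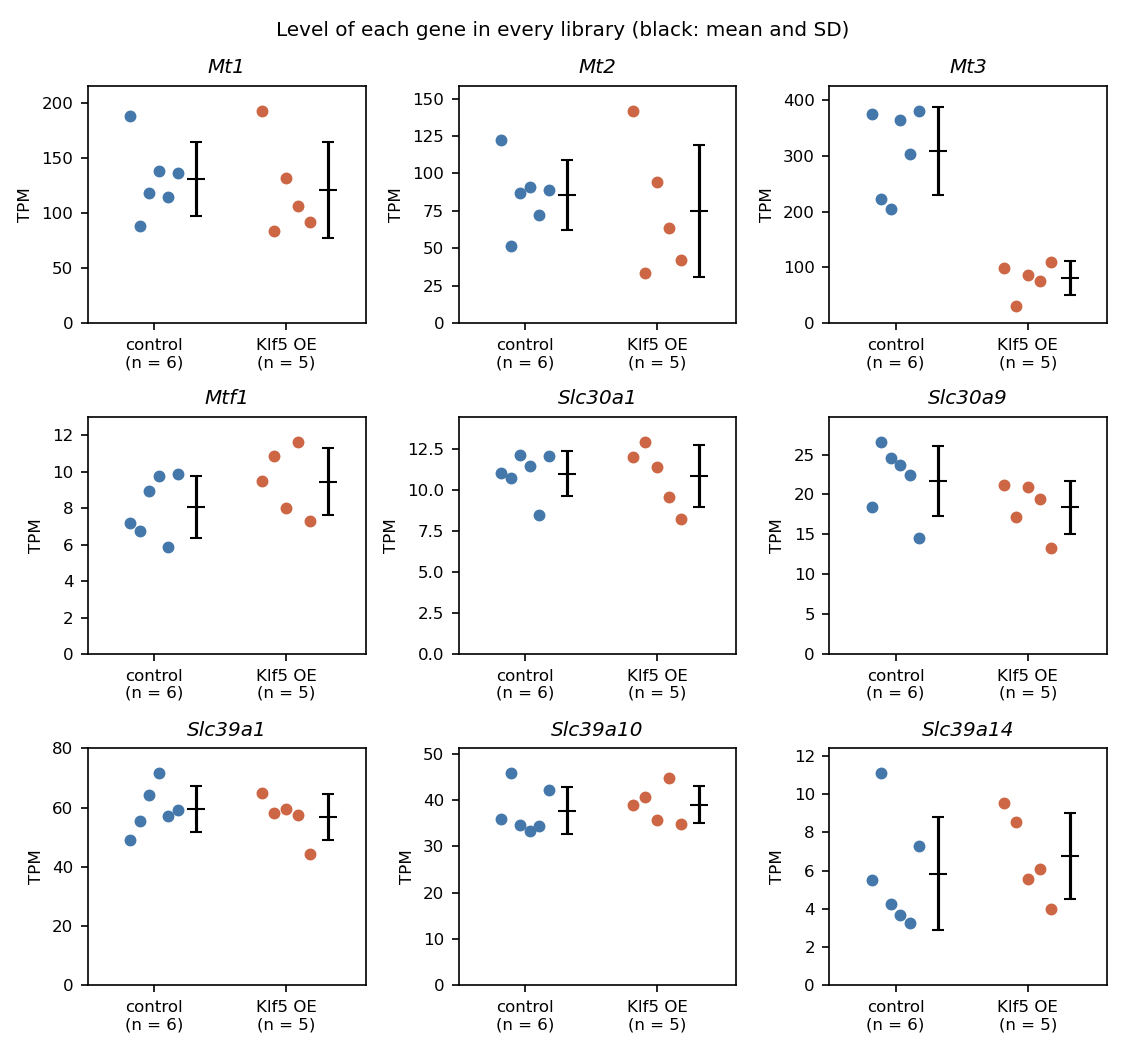
TPM of each of the 9 genes (vertical axes, linear, from 0) in every control (blue, n = 6) and Klf5 overexpression (orange, n = 5) library, with the mean and SD in black. The 5 overexpression libraries lie between 30.7 and 110.2 TPM for Mt3, all below the lowest control at 205 TPM, and the groups overlap for the other 8 genes.

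The makeup of the metallothionein transcripts differed accordingly. Mt3 made up 50.03 to 62.8% of the summed TPM of the 3 genes in control libraries. In overexpression libraries 1 to 5 it made up 23.0, 20.8, 27.5, 30.7 and 45.04%, so the groups did not overlap. Mt1 was the most abundant of the 3 in 4 of the 5 overexpression libraries; in library 5 Mt3 remained the highest at 1.20 times Mt1. In controls Mt3 was 1.74 to 2.79 times as high as Mt1. The sum of the 3 genes was 363 to 686 TPM in controls and 147 to 433 TPM with overexpression, and these ranges overlapped. The ratio of Mt1 to Mt2 was 1.36 to 1.70 in controls and 1.36 to 2.50 with overexpression, highest in overexpression library 2 and next highest in library 5.

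Within the control group, which leaves the comparison between groups aside, Mt1 and Mt2 varied together. Over the 6 control libraries Pearson's r of their log2(TPM + 1) values was 0.971 (two-sided exact permutation p = 0.00417, 0.0292 after Benjamini-Hochberg adjustment over 7 pairs of genes). The adjusted exact permutation p was 0.131, and so above 0.05, once ribosomal RNA-like and mitochondrial rows were left out, although r was then 0.972. Spearman's rho was 1 (exact permutation p = 0.00278, adjusted p = 0.0194), since both genes ranked the 6 libraries alike. Without control libraries 1 and 2, the 2 farthest from the median of Mt1, r was 0.780 over 4 libraries. Mt3 had lower r over the 6 controls, though no test compared the r of different pairs. Its r with Mt1 was 0.743 (exact permutation p = 0.0861, adjusted p = 0.301, rho 0.657 with exact permutation p = 0.175 and adjusted p = 0.408) and 0.750 without the same 2 libraries. Its r with Mt2 was 0.617 (exact permutation p = 0.206, adjusted p = 0.48) and 0.171 without them, with the same rho and rank p as for Mt1. Once ribosomal RNA-like and mitochondrial rows were left out, r of Mt3 was 0.761 with Mt1 and 0.642 with Mt2. The adjusted exact permutation p were then 0.131, the same as for Mt1 with Mt2, and 0.418.

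The other pairs over the control libraries, which set Mt1 or Mt2 against MTF1 and its known targets, did not pass. Mt1 had r of 0.240 with Slc30a1, 0.272 with Mtf1 and -0.48 with Slc39a10, and Mt2 had r of 0.335 with Slc30a1, each with an adjusted exact permutation p of 0.632. Their rho were 0.371, 0.543, -0.31 and 0.371, with adjusted exact permutation p of 0.564, 0.52, 0.564 and 0.564. Without the 2 libraries farthest from the median these r were 0.585, 0.784, 0.392 and 0.947, so the relation of Mt1 to Slc39a10 changed sign.

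**Figure D2:**
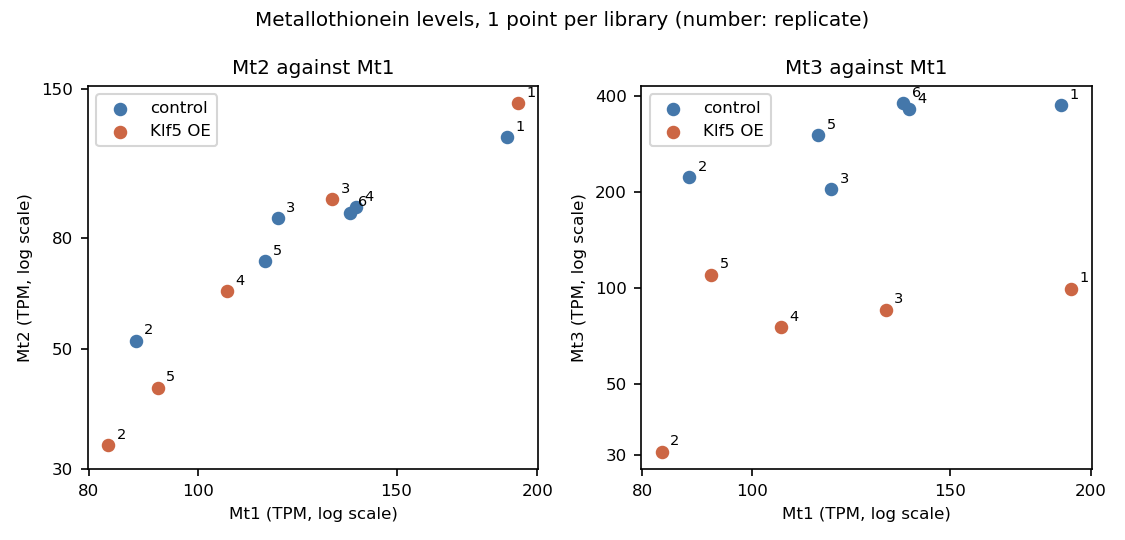
Mt2 against Mt1 (left) and Mt3 against Mt1 (right), in TPM on log axes, 1 point per library labelled with its replicate number, controls in blue and Klf5 overexpression in orange. On the left, Mt2 rises with Mt1 within each group. Overexpression libraries 2 and 5 have Mt1 to Mt2 ratios of 2.50 and 2.17, above the control range of 1.36 to 1.70. On the right, all 5 overexpression libraries lie below all 6 controls.

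Over all 11 libraries, after the mean of each group was taken off, the gene most like Mt1 among 9860 genes with at least 5 TPM in both groups was Mt2, with a Pearson r of 0.956. Neurl1b, an E3 ubiquitin ligase gene, and Lmo1, a LIM-only transcription regulator gene, came next with r of 0.942 and 0.940. For Mt2 the order was Neurl1b (r = 0.968), Rpa2, a subunit of replication protein A (r = 0.956), and Mt1. Mt3 ranked only 1427 for Mt1 and 2441 for Mt2, with r of 0.602 and 0.594. The genes most like Mt3 were Fgfbp3, an FGF-binding protein gene (r = 0.872), Gcat, a mitochondrial enzyme gene of threonine breakdown (r = 0.872), and Zfp647 (r = 0.867). These values describe 11 libraries that share 1 TPM scale each, and with so few libraries high r arise among many genes.

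The transcripts of Mt1, Mt2 and Mt3 in GENCODE M21 share no identical run longer than 27 bases. Mt2 overlaps the antisense gene Gm45774, which was at no more than 0.674 TPM in any library.

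The tested genes around the cluster, chosen by position after the values of Mt3 were seen, lay near 0. On the side of Mt3, Bbs2, Ogfod1 and Nudt21 had log2 fold changes of 0.11, -0.08 and -0.06, and on the side of Mt1, Nup93, Rpl10-ps5 and Herpud1 had 0.05, 0.03 and -0.12. None of these 6 passed the limma test (Benjamini-Hochberg adjusted p over all genes 0.889 to 0.989). The log2 intervals of the 6 genes lay between -0.48 and 0.50. Rpl10-ps5 (94222993 to 94223634) lies inside Nup93 (94214564 to 94317227) on the same strand. Their reads may therefore not be fully told apart, and the 6 genes are not fully separate. Mt4, the metallothionein of stratified epithelia, lies beyond Mt3 and was at 0 in 10 of the 11 libraries and at 0.427 TPM in the remaining one, a control.

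**Figure D3:**
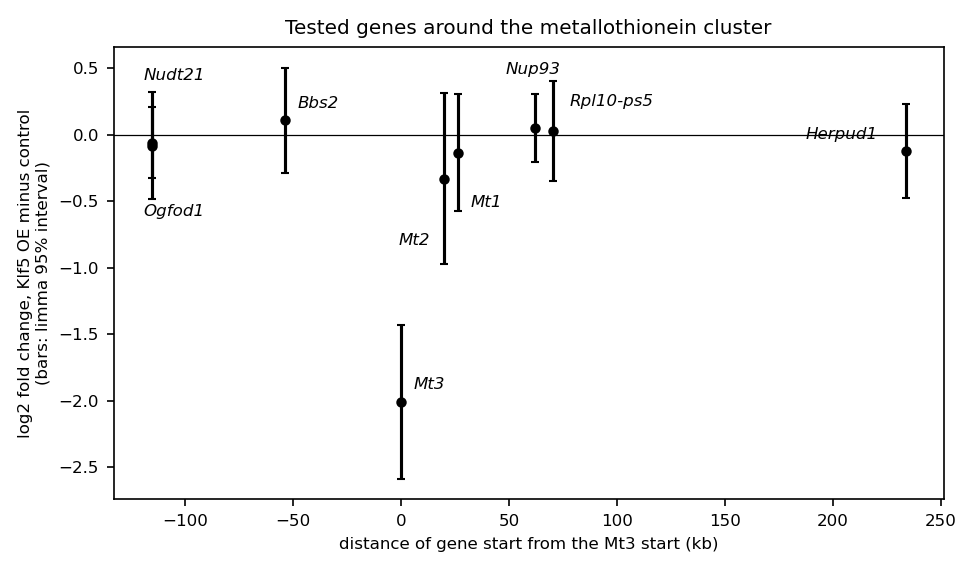
Log2 fold change on the log2(TPM + 1) scale (vertical axis, points with 95% limma intervals) of the tested genes around the metallothionein cluster, against the distance of each gene's start from that of Mt3 in kb. Mt3 lies at -2.01, Mt2 at -0.33, Mt1 at -0.14 and the 6 tested neighbours between -0.12 and 0.11.

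Some astrocyte markers also differed between the groups. The summed TPM of 9 such markers was 456 to 579 in controls and 317 to 460 with overexpression. Of the 8 tested, Aldh1l1, a folate enzyme, fell from 62.6 to 15.8 TPM and Slc1a3, a glutamate transporter, from 151.6 to 90.8 TPM (limma adjusted p = 0.000692 and 0.00892), while S100b, a calcium-binding protein, rose from 0.956 to 8.42 TPM (adjusted p = 0.00031). Gja1, Sox9, Aldoc, Slc1a2 and Aqp4 did not pass, and Gfap was at no more than 0.571 TPM in any library. The summed TPM of 6 neuron markers was 224 to 334 in controls and 195 to 306 with overexpression, and 0 of 6 tested passed. For 6 oligodendrocyte lineage markers it was 1610 to 2794 in controls and 1601 to 1953 with overexpression, and 0 of 5 tested passed. The part of any of these markers in the lower Mt3 level was not tested. In bulk RNA, fewer cells of a type and less RNA per cell cannot be told apart.

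Mtf1 (ENSMUSG00000028890, chromosome 4, 124802104 to 124849800, plus strand) stood at 5.86 to 9.86 TPM in controls, with a median of 8.07 TPM, and at 9.49, 10.9, 7.99, 11.6 and 7.32 TPM in overexpression libraries 1 to 5. Libraries 2 and 4 of the overexpression group lay above every control and the other 3 lay among them. The log2 fold change was 0.21 ± 0.18 (SE) and its 95% interval in limma ran from -0.17 to 0.59. Mtf1 overlaps 1110065P20Rik on the opposite strand, whose mean was 37.9 TPM in controls and 32.8 TPM with overexpression, and without strand their reads cannot be told apart.

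For both zinc exporters the control and overexpression ranges overlapped. Slc30a1 (ENSMUSG00000037434, chromosome 1, 191906767 to 191913247, plus strand), which moves zinc out across the plasma membrane, stood at 8.46 to 12.2 TPM in controls, with a median of 11.3 TPM, and at 12.01, 12.9, 11.4, 9.58 and 8.24 TPM in overexpression libraries 1 to 5. The ranges almost coincided, and the log2 fold change was -0.03 ± 0.16 (SE), with an interval from -0.36 to 0.31. Slc30a9 (ENSMUSG00000029221, chromosome 5, 67306955 to 67358443, plus strand), a transporter of the mitochondria, stood at 14.5 to 26.5 TPM in controls, with a median of 23.04 TPM. In overexpression libraries 1 to 5 it was at 21.2, 17.1, 21.0, 19.5 and 13.3 TPM. All 5 lay below the control mean of 21.7 TPM, but only library 5, which had the lowest summed TPM of all libraries (730832), lay below every control. For Slc30a9 the log2 fold change was -0.22 ± 0.17 (SE), with an interval from -0.58 to 0.14.

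Of the zinc importers, Slc39a1 (ZIP1; ENSMUSG00000052310, chromosome 3, 90248172 to 90253612, plus strand), a widely expressed plasma membrane importer, was the highest. It stood at 49.1 to 71.5 TPM in controls, with a median of 58.1 TPM, and at 64.9, 58.1, 59.4, 57.3 and 44.1 TPM in overexpression libraries 1 to 5. Of these 5 only library 5 lay outside the control range. That library also had the lowest summed TPM of all 11 libraries, 730832, and the part of this in its level was not tested. Its log2 fold change was -0.07 ± 0.13 (SE), with an interval from -0.34 to 0.20.

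Slc39a10 (ZIP10; ENSMUSG00000025986, chromosome 1, 46807544 to 46892852, minus strand), an importer whose gene MTF1 is known to repress, stood at 33.3 to 45.8 TPM in controls, with a median of 35.3 TPM. In overexpression libraries 1 to 5 it was at 38.9, 40.7, 35.7, 44.9 and 34.9 TPM, all within the control range. For Slc39a10 the log2 fold change was 0.05 ± 0.12 (SE), with an interval from -0.21 to 0.31. Slc39a14 (ZIP14; ENSMUSG00000022094, chromosome 14, 70303469 to 70351425, minus strand), which also carries iron and manganese, stood at 3.27 to 11.1 TPM in controls, with a median of 4.87 TPM, and at 9.57, 8.54, 5.57, 6.09 and 4.01 TPM in overexpression libraries 1 to 5. Here control library 2, the highest of all 11, set the top of the range, and every overexpression library lay within it. The log2 fold change was 0.23 ± 0.28 (SE), with an interval from -0.36 to 0.81, the widest among the Slc30 and Slc39 genes in this group of 9.

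Counted together, 1 of the 9 genes, Mt3, was past a Benjamini-Hochberg adjusted p of 0.05 in limma, against 3.72% of all tested genes (1.43% lower and 2.29% higher with overexpression). Mt3 was also the 1 gene of the 9 whose groups did not overlap, against 3.29% of all tested genes (1.31% lower with overexpression). Nothing is read from these counts, because the genes were picked with this comparison in view. The median log2 fold change of the 9 genes was -0.07, and that of all tested genes was -0.04.

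In control neurospheres, a level that does not use the comparison, the order by mean TPM was Mt3, Mt1, Mt2, Slc39a1, Slc39a10, Slc30a9, Slc30a1, Mtf1 and Slc39a14. Mt3 lay above 97.9% of all tested genes, Mt1 above 94.2% and Mt2 above 90.5%. The ranges over the 6 libraries did not overlap between Mt3 and Mt1, between Slc39a1 and Slc39a10, between Slc39a10 and Slc30a9, or between Slc30a9 and Slc30a1. Mt1 and Mt2 overlapped in range, but Mt1 was higher in each of the 6 libraries. Mt2 and Slc39a1 overlapped, with Mt2 higher in 5 of 6 libraries. Slc30a1 and Mtf1 overlapped, with Slc30a1 higher in each of the 6, and Mtf1 and Slc39a14 overlapped, with Mtf1 higher in 5 of 6. Mtf1, at 8.06 ± 1.69 TPM (SD, n = 6), lay above 34.8% of tested genes.

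No other tested zinc transporter gene passed in limma at an adjusted p of 0.05, against 3.72% of all tested genes. Not passing does not show that a gene was unchanged. Of the other Slc30 genes, 4 were tested and 0 passed, with log2 fold changes from -0.16 to 0.08. Slc30a5, an exporter into the secretory pathway, had 39.8 ± 3.17 TPM (SD, n = 6) in controls. With overexpression it had 35.6 ± 4.32 TPM (SD, n = 5), and the limma adjusted p was 0.697. Slc30a4 had 16.9 TPM with overexpression against 15.9 TPM in controls, the order used for such pairs from here on (adjusted p = 0.919). Slc30a2, Slc30a3, the transporter that fills synaptic vesicles with zinc, and Slc30a8 were listed at 0 in every library, and Slc30a10, which exports manganese, was at no more than 0.363 TPM.

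Of the other Slc39 genes, 6 were tested and 0 passed, with a median log2 fold change of -0.11 and a range from -0.37 to 0.13. Slc39a13, an importer of vesicles and the Golgi, had 6.34 ± 1.45 TPM (SD, n = 6) in controls. With overexpression it had 4.85 ± 2.31 TPM (SD, n = 5), and the log2 fold change was -0.37 ± 0.23 (SE; limma adjusted p = 0.597). It was -0.58 (adjusted p = 0.146) without overexpression library 1. Slc39a9 had 19.3 against 22.4 TPM (adjusted p = 0.746). Slc39a13 overlaps Psmc3 and Slc39a9 overlaps Erh, both on the opposite strand and both at far higher levels, with control means of 152.8 and 222 TPM. The genes left untested were Slc39a2, at 0.172 to 1.64 TPM, and Slc39a4, Slc39a5, Slc39a8 and Slc39a12, which stayed at or below 0.219, 0.300, 0.308 and 0.423 TPM.

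**Figure D4:**
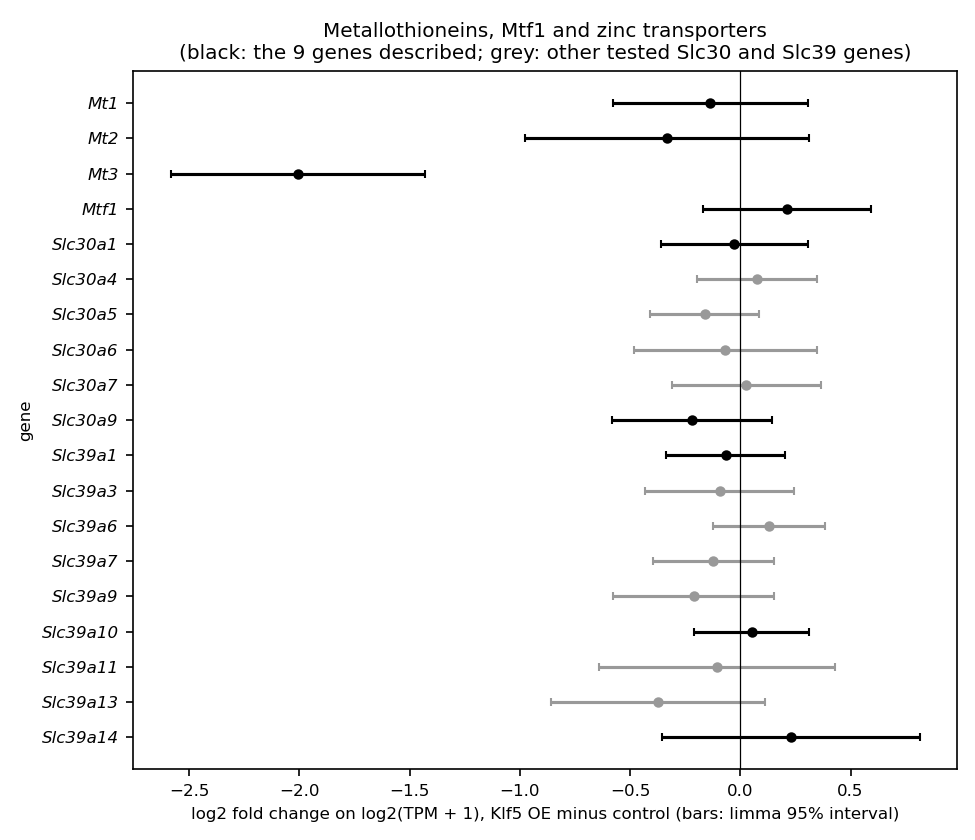
Log2 fold changes on the log2(TPM + 1) scale, Klf5 overexpression minus control, with 95% limma intervals, for the 9 genes (black) and the other tested Slc30 and Slc39 genes (grey). Mt3 lies at -2.01, and every other interval includes 0.

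Further genes tied to MTF1 or to metals likewise held no called gene. The zinc transporter, MTF1, other zinc, copper, oxidative stress and glucocorticoid lists held 42 tested genes that are not among the 9. Of these, 0 passed in limma with Benjamini-Hochberg adjustment, against 3.72% of all tested genes, and nothing is read from this count. At an unadjusted p under 0.05 there were 3 of the 42, Car2, Tsc22d3 and Zbtb16, against 12.6% of all tested genes, and the median log2 fold change of the 42 was -0.03. The count with Benjamini-Hochberg adjustment, 0 with all libraries, was 1 without overexpression library 1. That gene was Tsc22d3 (limma adjusted p = 0.0358).

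Of 4 tested MTF1-linked genes, Gclc, the catalytic subunit of the enzyme that starts glutathione synthesis, had 33.1 against 26.9 TPM (limma adjusted p = 0.722). Csrp1, a LIM domain protein gene, had 88.5 against 80.9 TPM (adjusted p = 0.83). The selenoprotein genes Selenow and Selenoh were also tested, and the log2 fold changes of the 4 genes lay between -0.12 and 0.23. Ndrg1 and Slc40a1, the iron exporter, were too low to be tested.

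Of 4 other tested zinc genes, Car2, the zinc enzyme carbonic anhydrase 2, had 21.1 ± 3.55 TPM (SD, n = 6) in controls. With overexpression it had 16.2 ± 2.41 TPM (SD, n = 5), and the log2 fold change was -0.36 ± 0.15 (SE; limma adjusted p = 0.289). Crip2, a LIM domain protein gene, had 110.5 against 90.0 TPM (adjusted p = 0.451). Zng1 could not be matched to a row.

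Metallothioneins also bind copper. All 11 copper genes were tested and 0 passed in limma, with log2 fold changes from -0.36 to 0.34 and a median of -0.02. Sco1, which loads copper into cytochrome oxidase, had 10.1 against 12.7 TPM (adjusted p = 0.541), and Atp7a, the copper pump mutated in Menkes disease, had 3.37 against 2.43 TPM (adjusted p = 0.569).

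Mt1 and Mt2 are further known to respond to oxidative stress and to glucocorticoids. Of 6 tested stress genes 0 passed, with log2 fold changes from -0.32 to 0.15. Nqo1, a quinone reductase, had 3.98 against 5.45 TPM (limma adjusted p = 0.67) and the heat shock gene Hspa1b, whose near-identical copy Hspa1a can share its reads, had 1.43 against 1.81 TPM (adjusted p = 0.822). Of 7 glucocorticoid-responsive genes 0 passed, with log2 fold changes on both sides of 0. Tsc22d3, also known as Gilz, had 12.6 ± 3.11 TPM (SD, n = 6) in controls. With overexpression it had 8.00 ± 4.62 TPM (SD, n = 5), and the log2 fold change was -0.70 ± 0.27 (SE; adjusted p = 0.25). Over the 19 alternatives its adjusted p ran from 0.0358, without overexpression library 1, to 0.547. Zbtb16, a zinc finger repressor gene, had 5.01 against 3.09 TPM (adjusted p = 0.314).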

How the data were processed

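RNA sequencing was analysed from 6 control and 5 Klf5 overexpression libraries; the labels' protocol counts as many embryos, so each library was taken as 1 embryo. The deposited values are TPM, 1 column per library, made by the authors. The submitters' processing notes name HISAT2, StringTie, HTSeq, DESeq2 and GRCm38.p5, without versions or roles. Not given in the sources used here are the annotation release, the strand setting and which of 2 kits (at least 1 directional, per the labels' protocols) made which library. TPM keeps no depth, so depth is unknown and intervals rest on the spread between libraries.

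Symbols were matched to 53255 of 53453 rows. Coordinates are from GENCODE M21 (GRCm38) and upstream sequences from RefSeq (GRCm38.p6). Genes that reached 1 TPM in 5 or more libraries were tested as log2(TPM + 1), a scale that understates the change of low genes, with limma 3.58.1 (R 4.3.3), a variance trend, no covariate and Benjamini-Hochberg adjustment at 0.05 over all 13549 genes. The script was tested on simulated data. Intervals are limma's at 95%. Permutation and correlation p are exact (Python 3.11.15, scipy 1.17.1).

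The 9 genes and the gene lists were chosen with earlier results of these data known. Named from each list were genes past the threshold or, with none, the 2 with the smallest p. Most alike genes were ranked by Pearson r. Alternatives were trimmed-mean scaling, quantile normalization, another pseudocount (0.1), a filter at 5 TPM or none, leaving out 394 ribosomal RNA-like and mitochondrial rows, array weights, the replicate number as a block, and leaving out each library. For the Klf5 level, the pseudocount and the removal of rows were added after seeing the data and left its exact permutation p at 0.00216.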

Additional observations from a re-analysis of the deposited data

Results flagged for a closer look

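In the group of 5 overexpression libraries, Slc39a13 in library 1 stood at 8.951 TPM, while the other 4 libraries lay between 3.416 and 4.155 TPM; its gap to the nearest was 0.866 of the group's range. Chance marks about 1 in 20 such groups, and this was 1 of 48 examined, with 0 among the 9 genes.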

How the results depend on the processing

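The alternatives reuse the same libraries, and the 9 genes were picked with this comparison in view. They therefore describe dependence on the processing and give no separate support. Mt3 was past the threshold and lower in all 19 alternatives, with log2 fold changes from -2.15 to -1.70. The other 8 genes passed in none of them. Their log2 fold changes kept their sign except for Slc30a1 (-0.09 to 0.06) and Slc39a1 (-0.12 to 0.02). The number of lower genes among all tested, 194, was 95 without a filter, 310 with trimmed-mean scaling, 311 with quantile normalization, and 123 to 213 with each library left out, lowest without overexpression library 2 and next lowest, at 126, without control library 3. The number of higher genes, 310, was 214 to 432. The count of other zinc and metal genes called was 0 to 1 with each library left out and 0 in the other alternatives. Without ribosomal RNA-like and mitochondrial rows, r of Mt1 and Mt2 over the controls was 0.972 but its adjusted exact permutation p was 0.131, against 0.0292. Leaving out the 2 control libraries farthest from the median moved r of Mt2 with Mt3 to 0.171, Mt1 with Slc30a1 to 0.585, Mt1 with Mtf1 to 0.784, Mt1 with Slc39a10 to 0.392 and Mt2 with Slc30a1 to 0.947; the cause was not tested. With the replicate block, on 10 libraries, the count of higher genes was 283 and of lower genes 137, and Mt3 had a log2 fold change of -1.94. The numbers were not taken to pair libraries: same-numbered deviations from the group means had correlations of -0.04 to 0.304, and 1 of 5 overexpression libraries correlated best with the control of its own number. Depth cannot be read from TPM, so genes near 0 cannot be called absent.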

Other observations

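The library numbered 1 held the highest Mt1 and Mt2 levels in both groups, with Mt1 at 188 TPM in control library 1 and 192 TPM in overexpression library 1. The library numbered 2 held the lowest, with Mt1 at 88.0 TPM in control library 2 and 83.3 TPM in overexpression library 2, and Mt2 at 51.7 and 33.2 TPM. Mt3 followed this order in part: it was lowest in overexpression library 2, at 30.7 TPM, but among controls it was lowest in library 3, at 205 TPM, with library 2 next at 223 TPM. Its highest levels were in control library 6, at 380 TPM, and overexpression library 5, at 110.2 TPM. The labels do not say whether libraries with the same number share a litter or a day.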
